A study of Arabidopsis thaliana with 4 samples.

Results

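UU tails are the mRNA 3′ ends in these libraries whose poly(A) tract was followed by exactly 2 uridines and by nothing else. They were selected on the deposited calls themselves: a read was taken where the number of added nucleotides was 2 and both were U, written as T in the table. The rule found 4274 UU tails among 89792 tails. The data came from 1 TAIL-seq series on Arabidopsis thaliana seedlings, in which an adapter is ligated to RNA 3′ ends so that the A tract and any nucleotides added after it are read. There were 4 libraries of total RNA from 2-week-old plants grown on soil under 16 h of light and 8 h of darkness, 1 for each genotype: urt1-1 (Salk_087647C), xrn4-3 (SALK_014209), the urt1-1 xrn4-3 double mutant, and wild type (WT) Col0. The mutants are called urt1, xrn4 and urt1 xrn4 below. With 1 library per genotype no difference has a replicate check, every percentage is that of a single library, and its 95% interval covers counting error only.

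Uridylation of mRNA is carried out in Arabidopsis by the terminal uridylyltransferase URT1, which adds U to oligoadenylated mRNA tails, and HESO1 is a second such enzyme, best known for uridylating small RNAs. XRN4 is the cytoplasmic exoribonuclease that degrades decapped mRNA from the 5′ end. Short A tracts are typical of mRNAs late in deadenylation, and U additions to them are found in many eukaryotes, where they mark mRNAs for decay or change how the 3′ end is trimmed. URT1, HESO1 and XRN4 themselves had 0 tails in each of the 4 libraries, so their transcripts do not check the labels here. Loci for light harvesting and photosystems, which mark green tissue, made up 10.3% of tails in urt1, 9.36% in xrn4, 10.6% in urt1 xrn4 and 9.21% in WT.

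The most frequent UU tail of each genotype is written out 5′ to 3′, to show the A tract lengths that the values below describe. The A tract is in lower case and the capitals mark the added bases.
urt1: aaaaTT
xrn4: aaaaaaaaaaTT
urt1 xrn4: aaaaTT
WT: aaaaaaaaaaaaaTT
unmodified tail, all 4 genotypes: aaaaaaaaaaaaaaaa
The first made up 90 UU tails in urt1, the second 176 in xrn4, the third 117 in urt1 xrn4 and the fourth 168 in WT. These ranks rest in part on repeated reads: with reads of the same locus, A length and addition counted once, the most frequent UU tail had 4 A in urt1 (45 tails), 13 A in xrn4 (61), 14 A in urt1 xrn4 (57) and 14 A in WT (83). The most frequent tail without any addition had 16 A in every library.

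UU tails were scarce in both libraries that carry urt1-1 and frequent in the other pair. They numbered 528 of 43391 tails in urt1, which is 1.22% (exact Clopper-Pearson 95% interval 1.12 to 1.32). In xrn4 they numbered 1414 of 9797 tails, or 14.4% (13.7 to 15.1). The double mutant had 902 of 26300 tails, or 3.43% (3.21 to 3.66), and WT had 1430 of 10304 tails, or 13.9% (13.2 to 14.6). The intervals of the 2 libraries with urt1-1 lie far below those of xrn4 and WT, and the double mutant lies above urt1.

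In percentage points, with Newcombe's 95% interval, the difference of urt1 from WT was -12.7 (-13.4 to -12.0), an 11.4-fold lower share. The double mutant differed from WT by -10.5 points (-11.2 to -9.76), a 4.05-fold lower share, and from xrn4 by -11.0 points (-11.7 to -10.3), a 4.21-fold lower share. Its difference from urt1 was 2.21 points (1.97 to 2.46), a 2.82-fold higher share. The 3 comparisons with WT share 1 library. With identical reads counted once these gaps were smaller for 3 pairs: urt1 minus WT was -9.54 points (7.52-fold lower), urt1 xrn4 minus WT -6.67 points (2.54-fold lower) and urt1 xrn4 minus xrn4 -5.52 points (2.28-fold lower), while urt1 xrn4 minus urt1 was 2.86 points (2.96-fold higher). For xrn4 and WT the difference was 0.555 points with an interval from -0.409 to 1.52, so a difference of that size was not detectable, and its sign turned with identical reads counted once (9.84% in xrn4 and 11.0% in WT). Repeated UU reads were most frequent in xrn4, where 48.3% of UU tails belonged to sets of at least 5 identical reads, against 15.0% in urt1, 14.6% in urt1 xrn4 and 16.2% in WT. Such reads may be copies of 1 molecule or separate molecules, which cannot be told apart without molecular identifiers. Counting once also removed unmodified reads, of which 43.15% remained in urt1, 66.9% in xrn4, 46.6% in urt1 xrn4 and 65.7% in WT. The UU share was then higher than with every read in urt1 (1.46%) and urt1 xrn4 (4.32%).

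**Figure D1:**
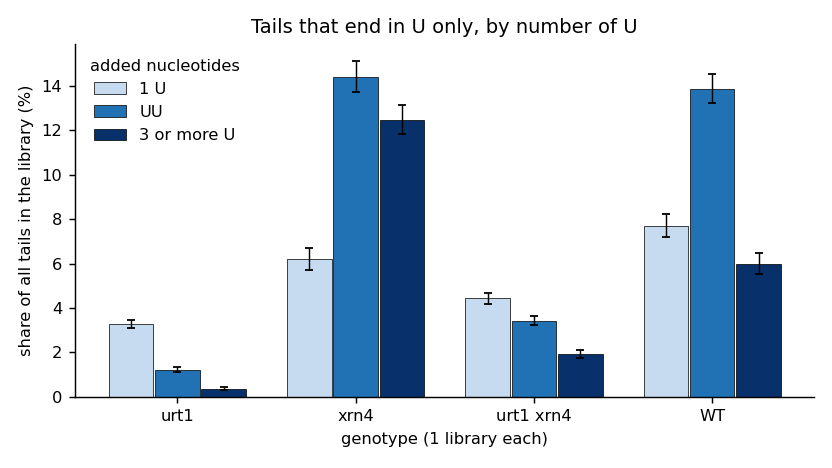
Share of all tails (vertical axis, %) that ended in 1 U, in UU or in 3 or more U, by genotype, with 1 library each; bars give the share and lines its exact 95% interval for counting error. UU is the commonest of the 3 classes in xrn4 (14.4%) and in WT (13.9%), while 1 U is the commonest in urt1 (3.28%) and urt1 xrn4 (4.44%).

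The neighbouring classes place the UU tails. Tails with 1 U numbered 1421 in urt1 (3.28% of all tails), 607 in xrn4 (6.20%), 1167 in urt1 xrn4 (4.44%) and 793 in WT (7.70%). Tails with 3 or more U numbered 161 in urt1 (0.371%), 1222 in xrn4 (12.5%), 506 in urt1 xrn4 (1.92%) and 618 in WT (5.998%). Thus the share in urt1 was 2.35-fold lower than in WT for 1 U, 11.4-fold lower for UU and 16.2-fold lower for 3 or more U. Between the double mutant and urt1 the same order held, with 1.36-fold, 2.82-fold and 5.18-fold higher shares in the double mutant. In xrn4 against WT, by contrast, the share of 1 U was 1.24-fold lower and that of 3 or more U 2.08-fold higher, with UU between them at 1.04-fold. Of the other additions of 2 nucleotides, those written AT, in a direction the table does not state, numbered 525 in urt1, 279 in xrn4, 564 in urt1 xrn4 and 239 in WT, so that AT was about as frequent as UU in urt1 only. The share of AT among all tails was 1.21% in urt1, 2.85% in xrn4, 2.14% in urt1 xrn4 and 2.32% in WT.

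Among tails that ended in U alone, UU made up 25.02% in urt1 (23.2 to 26.9), 43.6% in xrn4 (41.9 to 45.3), 35.03% in urt1 xrn4 (33.2 to 36.9) and 50.3% in WT (48.5 to 52.2). The 4 intervals do not overlap. UU was therefore the commonest form of U-only tail in xrn4 and WT, whereas 67.3% of U-only tails in urt1 and 45.3% in urt1 xrn4 had 1 U. The difference in UU among U-only tails was -25.3 points for urt1 minus WT (-27.9 to -22.7), -6.73 points for xrn4 minus WT (-9.23 to -4.22) and 10.01 points for urt1 xrn4 minus urt1 (7.38 to 12.6). Of all tails with a U extension, which include those of U and A mixed, UU made up 17.7% in urt1, 35.9% in xrn4, 25.6% in urt1 xrn4 and 43.8% in WT.

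The A tract before UU was short. Its median was 10 nt in urt1 (quartiles 5 and 14), 12 nt in xrn4 (9 and 14), 11 nt in urt1 xrn4 (7 and 14) and 13 nt in WT (10 and 15). The mean was 10.11 nt in urt1, 11.9 nt in xrn4, 10.6 nt in urt1 xrn4 and 13.02 nt in WT. Unmodified tails had a median of 16 nt in urt1, 16 nt in xrn4, 16 nt in urt1 xrn4 and 17 nt in WT, so UU tails were shorter in each library. This was not particular to UU, as tails with other additions also had shorter A tracts than unmodified tails. In WT the median was 14 nt with 1 U, 11 nt with 3 or more U and 12 nt with U and A. It was 13 nt with G additions and 11 nt with C additions. The table holds A tracts of 4 to 30 nt, and these medians are those of that range. At its short end the libraries differed: A tracts of 4 to 9 nt made up 45.5% of UU tails in urt1, 25.3% in xrn4, 38.6% in urt1 xrn4 and 16.8% in WT.

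The total extension size, the A tract and the addition together, was the A length plus 2 in each of the 4274 UU tails. Its median was 12 nt in urt1, 14 nt in xrn4, 13 nt in urt1 xrn4 and 15 nt in WT. In WT the commonest A tract was 15 nt before 1 U, 13 nt before UU and 11 nt before 3 U, while the median total size was 15 nt for each of these classes. In xrn4 the median total size was 15 nt with 1 U, 14 nt with UU and 13 nt with 3 U. In urt1 it was 14 nt with 1 U, 12 nt with UU and 12 nt with 3 U, and in urt1 xrn4 it was 12 nt, 13 nt and 11 nt in that order of classes. The equal median total size of the 3 classes was thus seen in WT and not in the other libraries. It did not hold for the commonest total size, which in WT was 16 nt with 1 U, 15 nt with UU and 14 nt with 3 U.

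**Figure D2:**
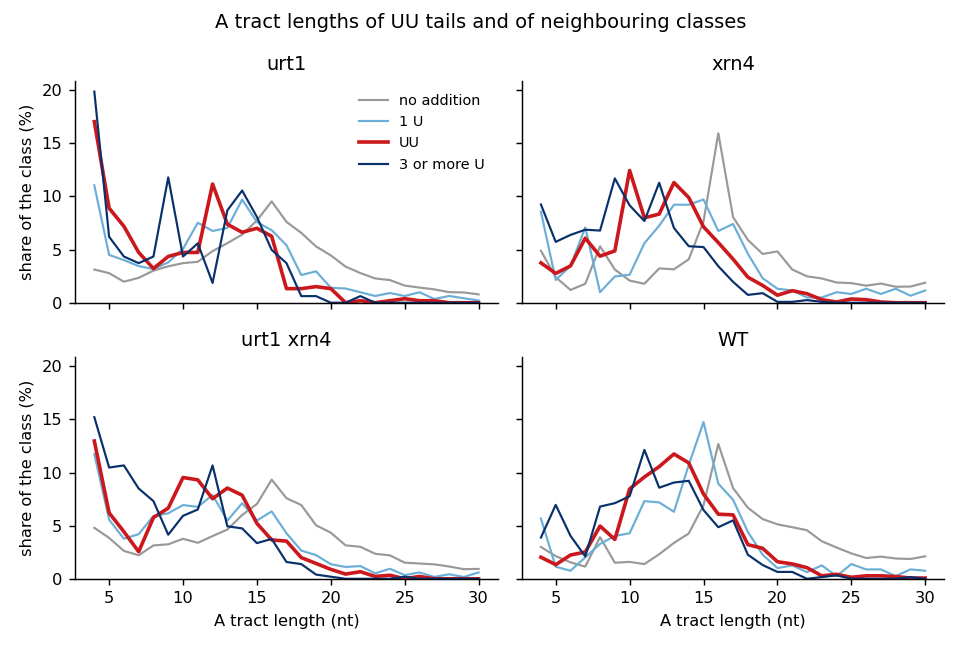
A tract length (horizontal axis, nt) of tails without addition, with 1 U, with UU and with 3 or more U, each as a share of its own class (vertical axis, %), 1 panel per genotype. In WT the UU curve peaks at 13 nt, to the left of the 1 U peak at 15 nt and the unmodified peak at 16 nt; in urt1 and urt1 xrn4 the UU curve is highest at 4 nt, which with identical reads counted once is so in urt1 and not in urt1 xrn4 (14 nt).

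The share of tails that carried UU depended on A length, and the form of that dependence differed between libraries. In WT it was 5.78% at 4 A, reached 34.5% at 10 A (121 of 351 tails; 29.5 to 39.7), was 31.4% at 13 A, and was 8.51% at 16 A. In xrn4 it was 7.26% at 4 A, 37.1% at 10 A (176 of 475; 32.7 to 41.6), 28.9% at 13 A and 7.62% at 16 A. In the double mutant the highest value was 8.14%, at 11 A (84 of 1032; 6.54 to 9.98), against 5.97% at 4 A. In urt1 the highest value was 3.98%, at 4 A (90 of 2260; 3.21 to 4.87), with 2.72% at 12 A and 0.841% at 16 A. In WT the values at 10, 11, 12 and 13 A had overlapping intervals, so the place of the maximum within that range was not resolved. With identical reads counted once the highest share was 4.27% at 5 A in urt1, 22.9% at 10 A in xrn4, 11.5% at 10 A in urt1 xrn4 and 28.2% at 12 A in WT.

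In classes of A length, tails of 10 to 13 A carried UU in 1.85% of cases in urt1 (1.569 to 2.173), 28.5% in xrn4 (26.6 to 30.6), 6.82% in urt1 xrn4 (6.11 to 7.59) and 32.7% in WT (30.5 to 34.97). Tails of 18 to 30 A carried it in 0.205% of cases in urt1, 4.94% in xrn4, 0.717% in urt1 xrn4 and 4.90% in WT. When every library was weighted to the A lengths of WT, the share of UU was 1.14% in urt1, 12.9% in xrn4, 3.11% in urt1 xrn4 and 13.9% in WT, so the order of urt1, urt1 xrn4 and the other pair was that of the unweighted shares. The sign of the difference between xrn4 and WT turned, to -0.947 points.

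**Figure D3:**
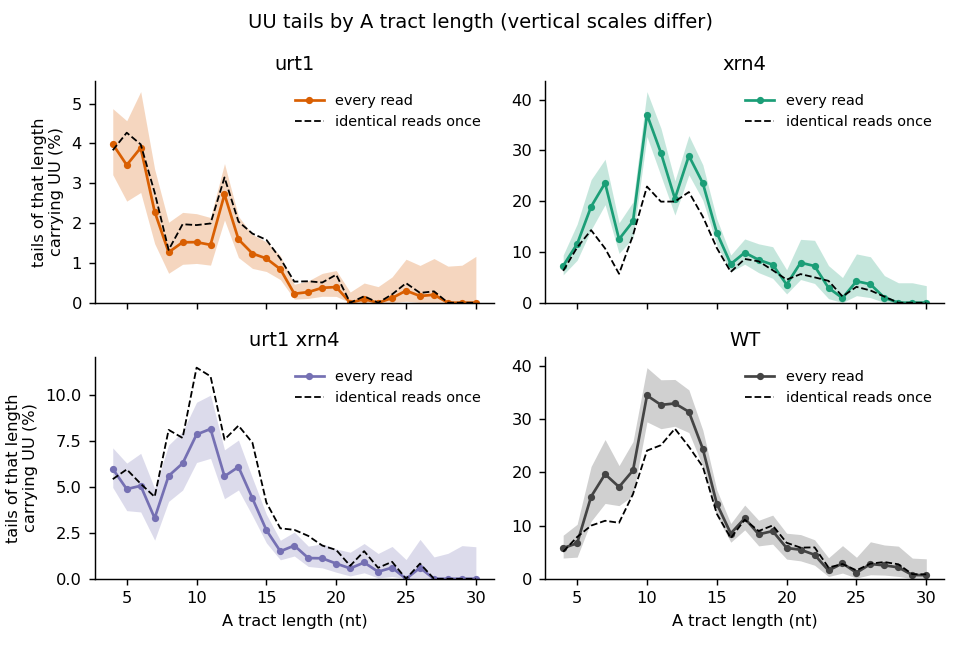
Share of tails carrying UU (vertical axis, %; scales differ between panels) at each A tract length (horizontal axis, nt), with the exact 95% interval for counting error as a band, 1 panel per genotype; the dashed line counts identical reads once. The values are highest at 10 nt in xrn4 (37.1%) and WT (34.5%), at 11 nt in urt1 xrn4 (8.14%) and at 4 nt in urt1 (3.98%).

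UU tails with 4 A could in principle be read from A runs in the genome, and the letters AAAATT were therefore searched, on the gene's strand only, from 500 bases before to 200 bases after each annotated gene end in the RefSeq TAIR10.1 annotation. They occurred in 50.4% of 8308 windows. Of the UU tails with 4 A, 65.6% lay on loci with the letters in urt1 (59 of 90), 60.4% in xrn4 (32 of 53), 53.0% in urt1 xrn4 (62 of 117) and 62.1% in WT (18 of 29). Over all A lengths, a run of the tail's own A number followed by TT was present for 13.1% of UU tails in urt1, 3.95% in xrn4, 9.23% in urt1 xrn4 and 1.68% in WT. Among all windows such a run occurred in 18.85% for 5 A, 7.99% for 6 A and 0.758% for 10 A. Tails with 4 A made up 17.05% of UU tails in urt1, 3.75% in xrn4, 12.97% in urt1 xrn4 and 2.03% in WT. The values over all A lengths were not adjusted for this. Such a match is a description of the window and whether those reads end there was not tested. Among the loci named below, those with a match and the most UU tails of 4 A were LHCB2.1 and LHB1B2 in urt1, AT3G56360 in xrn4, and AT4G05070 in urt1 xrn4. At AT3G56360, 8 of the 17 UU tails in xrn4 had 4 A. A match on each of the last 3 loci (1 of 2 for LHB1B2 and AT3G56360, the only 1 for AT4G05070) is shown with the run in capitals, because these loci are described below.
LHB1B2, chr2:14522523-14522552, minus strand: atccactcttgtAAAATTcatatgttctgt
AT3G56360, chr3:20897733-20897762, plus strand: aacctccgtcggAAAATTccggagtcgatc
AT4G05070, chr4:2593536-2593565, minus strand: agattatacaaaAAAATTagtttgataaag
The run in LHB1B2 starts 17 bases before the annotated end, counting the last base as 1, that in AT3G56360 starts 3 bases before it, and the capitals in AT4G05070 start at base 42 after it. There they are the last 4 of 7 A, a run that starts at base 39, since the search also took the letters where they end a longer run. Leaving out tails with fewer than 10 A gave a UU share of 0.827% in urt1 and 2.80% in urt1 xrn4. The difference between urt1 xrn4 and urt1 was then 1.97 points.

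UU tails were found on 210 of 5489 loci in urt1, 316 of 2557 in xrn4, 445 of 4066 in urt1 xrn4 and 404 of 2702 in WT. Together these were 1134 loci, of which 16 had a UU tail in all 4 libraries. The 10 loci with the most UU tails held 25.6% of them in urt1, 12.8% in xrn4, 13.4% in urt1 xrn4 and 10% in WT. Pairs of libraries shared part of their lists. The urt1 and xrn4 libraries shared 40 loci, which is 19.05% of the urt1 list and 12.7% of the xrn4 list. For urt1 xrn4 and WT it was 67 loci, which is 15.1% and 16.6% of those lists. Beside this, loci with a UU tail were 3.83% of all loci in urt1, 12.4% in xrn4, 10.9% in urt1 xrn4 and 14.95% in WT. Many loci of the WT list were little sampled elsewhere, since of its 404 loci only 279 had any tail in urt1, 201 had one in xrn4 and 252 had one in urt1 xrn4.

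In xrn4 and WT, UU tails were most frequent on loci with a moderate number of reads. At 186 of the 404 WT loci, each tail in the table was a UU tail, and these loci held 628 of the 1430 UU tails. The same was the case at 36 of 210 loci in urt1, 143 of 316 in xrn4 and 173 of 445 in urt1 xrn4. These counts include loci with a single tail that was UU, where no other outcome was possible. Such loci numbered 20 in urt1, 40 in xrn4, 125 in urt1 xrn4 and 35 in WT. Among all loci with at least 2 UU tails, many had them at a single A length. This was so at 68 of 114 loci in urt1, 97 of 228 in xrn4, 86 of 163 in urt1 xrn4 and 132 of 320 in WT. Such repeated reads may be copies of 1 molecule, so a locus with UU tails alone may rest on few molecules. On loci with at least 20 tails the UU share was 1.21% in urt1, 12.2% in xrn4, 2.37% in urt1 xrn4 and 8.32% in WT. On loci with 2 to 4 tails it was 1.27% in urt1, 12.1% in xrn4, 4.91% in urt1 xrn4 and 17.1% in WT, and on loci with 5 to 19 tails it was 1.17% in urt1, 20.1% in xrn4, 3.27% in urt1 xrn4 and 18.97% in WT.

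Loci with a single tail went another way. There the share was 1.48% in urt1 (20 of 1349), 2.99% in xrn4 (40 of 1337; 2.15 to 4.05), 9.34% in urt1 xrn4 (125 of 1339; 7.83 to 11.0) and 2.79% in WT (35 of 1253; 1.95 to 3.86). The double mutant thus had its highest share on such loci, where xrn4 and WT had their lowest, and there it lay above both. A locus with 1 read holds no identical reads, but a locus whose molecule was read repeatedly has more than 1 tail and leaves this class. With identical reads counted once, 63.08% of UU tails and 46.6% of unmodified tails remained in urt1 xrn4. These values were 56.63% and 43.15% in urt1, 40.03% and 66.9% in xrn4, and 50.84% and 65.7% in WT. Whether this unequal repetition gave the shares on loci with a single tail was not tested. The libraries differ in size, so a locus with 1 tail is not of the same abundance in each of them.

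**Figure D4:**
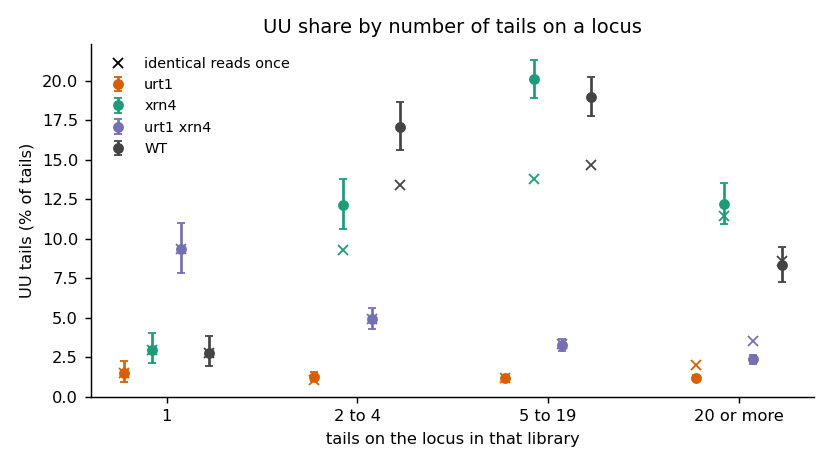
Share of tails that were UU (vertical axis, %) on loci grouped by how many tails they had in the same library (horizontal axis); points give every read with the exact 95% interval for counting error, and crosses count identical reads once. The share in urt1 xrn4 is 9.34% on loci with 1 tail and 2.37% on loci with 20 or more, while in xrn4 and WT loci with 5 to 19 tails are highest, at 20.1% and 18.97%.

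The loci with the most UU tails are described next; a ranking by number favours deeply read loci. The values that follow give UU tails of all tails on the locus. RCA, rubisco activase, which keeps the carbon-fixing enzyme active, had 28 of 339 in urt1, 25 of 174 in xrn4, 7 of 118 in urt1 xrn4 and 15 of 174 in WT. Its UU share was 8.26% in urt1 (5.56 to 11.7) and 8.62% in WT (4.91 to 13.8), and these intervals overlap almost wholly. CRD1, an enzyme of chlorophyll synthesis, had 21 of 353 in urt1, 12 of 30 in xrn4, 18 of 139 in urt1 xrn4 and 0 of 51 in WT, where a count of 0 allows a share of up to 5.88%. It was the locus with the most UU tails in the double mutant and had them on 8 A lengths there and on 10 in urt1. The 28 UU tails of RCA in urt1 had 11 A lengths, so neither locus owed its UU tails in urt1 to 1 repeated read.

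TIP2 (AT3G26520), a water channel of the vacuole membrane, had 18 of 220 in urt1, 5 of 25 in xrn4, 8 of 163 in urt1 xrn4 and 13 of 23 in WT. LHB1B2, an antenna protein that gathers light for photosystem II, had 14 of 200 in urt1, 3 of 59 in xrn4, 10 of 228 in urt1 xrn4 and 7 of 35 in WT, and 8 of the 14 in urt1 had 4 A. Its relative LHCB2.1 had 12 of 176 in urt1, 1 of 44 in xrn4, 6 of 120 in urt1 xrn4 and 6 of 63 in WT, with 10 of the 12 in urt1 and 5 of the 6 in WT at 4 A. Both loci hold the letters AAAATT near their ends, as shown for LHB1B2. LHCB2.1 and LHCB2.2 are close paralogs, and how the authors divided reads between such copies is not stated.

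LHCB2.2 differed between xrn4 and the rest. It had 2 of 393 in urt1, 17 of 76 in xrn4, 7 of 204 in urt1 xrn4 and 2 of 103 in WT, which is 22.4% in xrn4 (13.6 to 33.38) and 1.94% in WT (0.236 to 6.84). Its 17 UU tails in xrn4 had 5 A lengths from 9 to 16 nt. CAB1, another chlorophyll-binding protein, had 8 of 420 in urt1, 6 of 95 in xrn4, 0 of 159 in urt1 xrn4 and 6 of 68 in WT. DRT112, a plastocyanin that carries electrons to photosystem I, had 9 of 514 in urt1, 1 of 87 in xrn4, 5 of 260 in urt1 xrn4 and 4 of 92 in WT.

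In xrn4 and WT several loci bore UU on most of their tails. KUF1, an F-box protein induced by karrikins, had 22 of 26 in xrn4 and 18 of 18 in WT, with 0 of 3 in urt1 and 0 of 1 in urt1 xrn4. Its UU tails had 4 A lengths in xrn4, where 10 of the 22 had 7 A, and 5 A lengths in WT. EBF1, the F-box protein that targets the ethylene regulator EIN3 for degradation, had 1 of 28 in urt1, 0 of 3 in xrn4, 12 of 40 in urt1 xrn4 and 21 of 23 in WT. Its share was 3.57% in urt1 (0.0904 to 18.4), 30% in urt1 xrn4 (16.6 to 46.5) and 91.3% in WT (72.0 to 98.9), 3 intervals of which the first and the second overlap. HSC70-1, a cytosolic chaperone, had 0 of 58 in urt1, 4 of 13 in xrn4, 1 of 28 in urt1 xrn4 and 11 of 19 in WT.

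The wound-responsive family member AT4G28240 had UU tails in each library, with 6 of 22 in urt1, 15 of 27 in xrn4, 4 of 26 in urt1 xrn4 and 18 of 23 in WT. The uncharacterised AT3G56360 had 0 of 23 in urt1, 17 of 30 in xrn4, 3 of 27 in urt1 xrn4 and 16 of 25 in WT, where its 16 UU tails had 4 A lengths from 8 to 12 nt. In xrn4 the same locus carried 3 or more U on each of the other 13 tails. AT5G18380, annotated as a ribosomal protein S5 domain family member, had 4 of 180 in urt1, 0 of 25 in xrn4, 0 of 136 in urt1 xrn4 and 11 of 42 in WT.

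A further set was rich in UU in xrn4. AT3G18773, a RING/U-box protein, had 0 of 6 in urt1, 16 of 16 in xrn4, 3 of 9 in urt1 xrn4 and 3 of 3 in WT. AT1G01490, of the heavy metal transport and detoxification family, had 0 of 3 in urt1, 21 of 31 in xrn4, 1 of 9 in urt1 xrn4 and 3 of 3 in WT. The translation termination factor ERF1-1 had 0 of 9 in urt1, 17 of 23 in xrn4, 0 of 3 in urt1 xrn4 and no tail in WT. AT2G34480, a ribosomal protein of the L18ae family, had 0 of 51 in urt1, 16 of 24 in xrn4, 0 of 31 in urt1 xrn4 and 0 of 13 in WT, where a count of 0 allows up to 23.1%. Its 16 UU tails in xrn4 had 8 A lengths from 12 to 19 nt.

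The remaining loci had most of their UU tails, by number, in a urt1-1 background, where the libraries are larger, and some were little read elsewhere. By share AT1G56220 was higher in WT (77.8%) than in urt1 xrn4 (33.3%). Likewise AT4G05070 was higher in xrn4 (28.6%) than in urt1 xrn4 (11.7%). The glycine-rich protein gene AT4G29020 had 0 of 59 in urt1, 0 of 5 in xrn4, 15 of 31 in urt1 xrn4 and 0 of 3 in WT; 11 of the 15 had 13 A. AT2G42190 had 0 of 1 in urt1, 0 of 5 in xrn4, 13 of 16 in urt1 xrn4 and 0 of 6 in WT. Of its 13 UU tails in urt1 xrn4, 9 had 6 A. CRT1a, a calreticulin, had 0 of 4 in urt1 and 10 of 19 in urt1 xrn4, and no tail in xrn4 or WT. Of its 10 UU tails, 9 had 9 A. AT3G26070, a plastid fibrillin family member, had 11 of 15 in urt1, 0 of 1 in xrn4, and no tail in urt1 xrn4 or WT. AT1G56220, a dormancy and auxin associated protein, had 0 of 52 in urt1, 0 of 4 in xrn4, 12 of 36 in urt1 xrn4 and 7 of 9 in WT. AT4G05070 had 2 of 105 in urt1, 6 of 21 in xrn4, 15 of 128 in urt1 xrn4 and 0 of 32 in WT, and 12 of the 15 in urt1 xrn4 had 4 A, while the genome run shown above has 7.

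**Figure D5:**
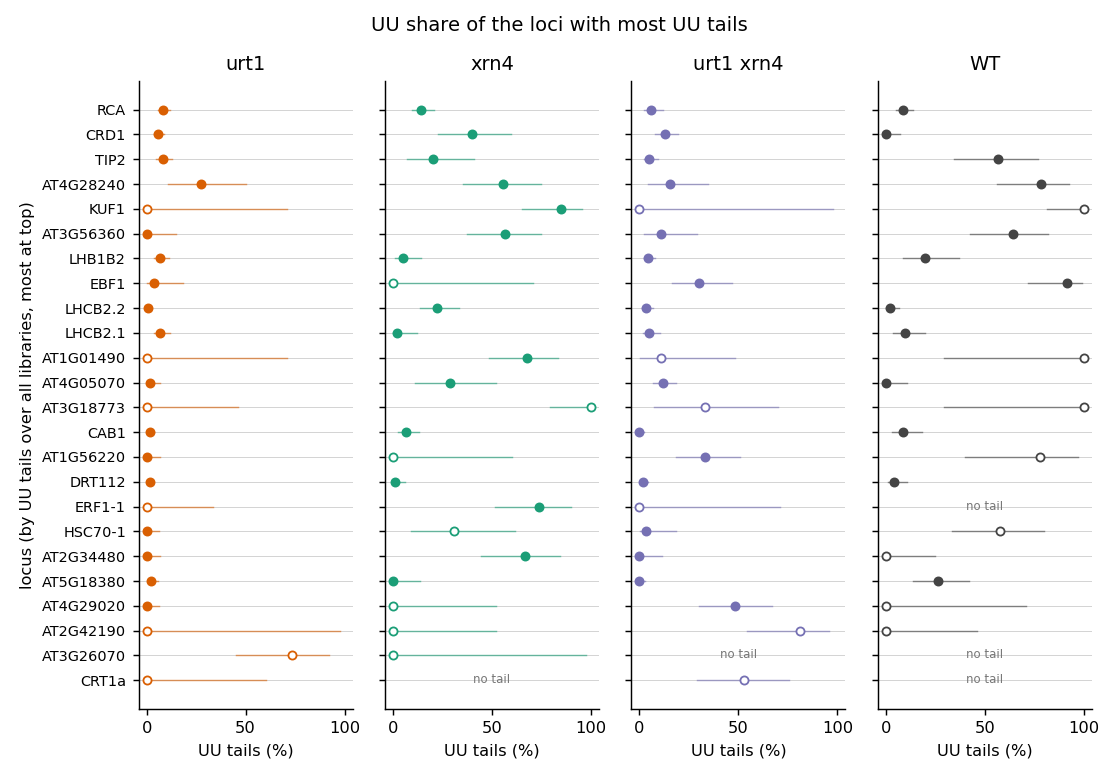
UU share of tails (horizontal axis, %) on the 24 loci among the 8 richest in UU tails in any library, 1 panel per genotype; lines are exact 95% intervals for counting error, filled points rest on at least 20 tails and open points on fewer. EBF1 (91.3%) and AT4G28240 (78.3%) are the highest filled points in WT, while in urt1 AT3G26070 is the only locus of the 24 above 50%, on 15 tails.

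Within single loci the UU share of U-only tails varied widely. Over loci with at least 10 U-only tails its median was 24.0% in urt1 (22 loci, quartiles 7.55 and 39.2), 40% in xrn4 (75 loci, 0 and 82.0), 35% in urt1 xrn4 (29 loci, 17.4 and 54.5) and 60% in WT (25 loci, 34.1 and 90). In xrn4 13 of the 75 loci had UU alone and 23 had no UU at all. The pooled xrn4 value therefore combined loci at both extremes. UU alone was also found at 6 of the 25 loci in WT, 2 of the 29 in urt1 xrn4 and 0 of the 22 in urt1. No UU was found at 2 loci in WT, 4 in urt1 xrn4 and 5 in urt1. Every read was counted here. Repeated reads of 1 molecule can place a locus at either extreme, and their part was not tested.

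Single loci were compared between libraries where both had at least 50 tails, and a locus was counted where Newcombe's interval of the difference excluded 0. Between urt1 and WT, 16 loci could be compared: 0 were higher (0%) and 6 were lower in urt1 (37.5%), while for any U extension 0% were higher and 62.5% lower. The 6 were AT1G07940, an elongation factor Tu family member, LHCB6, CAB1, PSAG, AT2G45180 and FBA2. Some of them rest on few or repeated WT reads. LHCB6 had 3 UU tails in WT, all with 11 A, and its interval was -11.9 to -0.0422 points. AT2G45180 had 2 of 55 in WT, and 4 of the 5 UU tails of AT1G07940 in WT had 14 A. PSAG, a subunit of photosystem I, had 2 of 248 in urt1 and 9 of 51 in WT, and FBA2, a plastid aldolase, had 5 of 570 in urt1 and 10 of 133 in WT. The median difference over the 16 loci was -2.61 points, beside -12.7 points over all tails; the 16 WT loci with at least 50 tails had a median UU share of 3.99%, beside 13.9% over all WT tails.

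Between xrn4 and WT, 12 loci could be compared, of which LHCB2.2 was higher in xrn4 (8.33%) and 0% were lower; any U extension was higher for 58.3% of the 12 and lower for 0%. The median difference in UU share was -0.294 points. Between urt1 xrn4 and WT, 16 loci could be compared. CRD1 was higher (6.25%) and AT1G07940, CAB1, PSAG and FBA2 were lower in the double mutant (25%), and any U extension was higher for 6.25% and lower for 50%. For AT1G07940 the same 5 WT UU tails were counted, 4 of them with 14 A. FBA2 had 0 of 169 in urt1 xrn4, which allows a share of up to 1.78%.

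Between urt1 xrn4 and xrn4, 15 loci could be compared. AT3G09200, a ribosomal protein of the L10 family, was higher in the double mutant with 6 of 65, against 0 of 53 in xrn4 (6.67% of the loci). Of these 6 UU tails 5 had 11 A. The interval counts every read, though such repeated reads may be copies of 1 molecule. CAB1, LHCB2.2, RCA, FBA2 and emb2171, a ribosomal protein of the L14p/L23e family, were lower (33.3%). For any U extension 6.67% were higher and 80% lower. Between urt1 xrn4 and urt1, 58 loci could be compared, of which 9 were higher (15.5%) and 1 was lower (1.72%) in the double mutant. The 9 were SAC52, GER1, LHCB2.2, FBA1, LHCB4.2, AT3G09200, CRD1, AT4G05070 and PSBO1, and the 1 was LHCA4. Repeated reads bear on some of these too. For AT3G09200 the same 6 UU tails were counted, and 12 of the 15 UU tails of AT4G05070 in urt1 xrn4 had 4 A. SAC52, a ribosomal protein, had 6 of 108 in urt1 xrn4 and 0 of 255 in urt1, and PSBO1, a subunit of the oxygen-evolving complex, had 5 of 72 in urt1 xrn4 and 0 of 135 in urt1. LHCA4, an antenna protein of photosystem I, had 0 of 71 in urt1 xrn4 and 7 of 97 in urt1. Any U extension was higher for 24.1% of the 58 and lower for 0%.

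Gene lists, drawn from product names, differed in how much UU they carried. Loci for light harvesting and photosystems had a UU share of 1.88% in urt1 (84 of 4466 tails), 7.74% in xrn4 (71 of 917), 2.22% in urt1 xrn4 (62 of 2796) and 8.01% in WT (76 of 949). Calvin cycle loci had 1.88% in urt1 (41 of 2184), 6.04% in xrn4 (36 of 596), 1.87% in urt1 xrn4 (18 of 965) and 6.87% in WT (39 of 568), with RCA as the richest locus in each library. Both lists lay below the share over all tails in xrn4, urt1 xrn4 and WT. In urt1 both lay above it, but the Calvin cycle list did so through RCA: without that locus, an alternative added after seeing the data, its share was 0.705% in urt1 (13 of 1845), 2.61% in xrn4 (11 of 422), 1.30% in urt1 xrn4 (11 of 847) and 6.09% in WT (24 of 394), each below the share over all tails. No list was matched to other loci for tails per locus. On all loci with at least 20 tails the UU share was 1.21% in urt1, 12.2% in xrn4, 2.37% in urt1 xrn4 and 8.32% in WT.

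Ribosomal protein loci not named as of an organelle had 0.308% in urt1 (19 of 6179), 10.4% in xrn4 (112 of 1076), 1.64% in urt1 xrn4 (62 of 3789) and 3.98% in WT (41 of 1030). In this list xrn4 stood above WT, with intervals of 8.65 to 12.4 and 2.87 to 5.36, and it did so also with identical reads counted once (7.93% in xrn4 and 4.07% in WT). Over all tails, by comparison, xrn4 and WT were at 14.4% and 13.9%. AT2G34480 gave 16 of the 112 UU tails in xrn4. Ribosomal proteins named as of plastid or mitochondrion had 3 of 186 in urt1, 0 of 20 in xrn4, 0 of 142 in urt1 xrn4 and 0 of 34 in WT. Translation factors had 2 of 1030 in urt1, 10 of 158 in xrn4, 18 of 413 in urt1 xrn4 and 19 of 247 in WT, which is a share of 0.194% in urt1, 6.33% in xrn4, 4.36% in urt1 xrn4 and 7.69% in WT.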

How the data were processed

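The values are those of 1 deposited table with 1 line per read. Per the file headers it gives the read identifier, genotype, A tract length, added nucleotides and their number, total extension size, a category and the locus; these lengths in nucleotides and letters are of no normalised unit and were used as the authors deposited them. The build TAIR10 and the programs bedtools 2.17.5, Bowtie2, TopHat2 2.0.9 and CASAVA 1.8.2 are named, per the submitters' processing notes; no source used here states how tails were measured or filtered. The table holds A tracts of 4 to 30 nt, so its 9797 to 43391 reads per library are not full depth. The genotype written UX was taken as urt1 xrn4 from its initials. The direction in which additions are written is not stated, which does not bear on UU.

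Shares were computed per library with scipy 1.17.1, pandas 2.3.3 and numpy 2.4.6 under Python 3.11.15 and plotted with matplotlib 3.10.9, with exact Clopper-Pearson 95% intervals and Newcombe's interval for differences. Where a share was 0, the limit given is 3 counts over the number of tails. Without molecular identifiers, intervals cover counting error only. The step over loci was tested on simulated data with independent reads and a common UU share for unchanged loci. Such data hold no repeated reads and no spread between loci, so the test does not cover either. RefSeq TAIR10.1 gave names, products and 3′ windows for 8308 of 8346 loci. No p-value was computed, and no samples were paired or left out. UU tails, the lists and the rule for named loci were chosen with earlier results of these data known: the rule took the 8 loci with the most UU tails in each library, loci with at least 50 tails in all 4, and URT1, HESO1 and XRN4. Loci named as counted in a comparison of single loci, or as first in a list, fall outside it and were chosen after their values were seen. Alternatives counted identical reads once, restricted A lengths, left out the richest locus, weighted loci equally or changed the minimum of tails; single lanes, weighting to the A lengths of WT and the Calvin cycle list without RCA were added after seeing the data.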

Additional observations from a re-analysis of the deposited data

Results flagged for a closer look

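The difference between libraries with and without xrn4-3 pointed in opposite directions for 3 measures of UU tails, depending on whether both libraries carried urt1-1. UU as a share of U-only tails differed by -6.73 points between xrn4 and WT and by 10.01 points between urt1 xrn4 and urt1. The mean A length before UU differed by -1.08 nt between xrn4 and WT and by 0.523 nt between urt1 xrn4 and urt1, and the median by -1 nt and by 1 nt. The opposite sign of the median rests on all reads of urt1, whose median was 10 nt: in lane 1 alone it was 11 nt in both urt1 xrn4 and urt1, and among tails with 10 or more A it was 13 nt in both. Each direction rests on 1 library per genotype, and the difference between the 2 contrasts was not tested. With identical reads counted once, UU made up 35.6% of U-only tails in urt1 xrn4 and 21.1% in urt1, and 40.9% in xrn4 and 47.2% in WT. The mean A length was then 11.7 nt in urt1 xrn4 and 10.7 nt in urt1, and 12.7 nt in xrn4 and 13.8 nt in WT.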

How the results depend on the processing

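No paired analysis was possible because each genotype has 1 library. The sign of the UU difference between xrn4 and WT turned with identical reads counted once (-1.16 points), in lane 1 alone (-0.345) and at the A lengths of WT (-0.947); the cause was not tested. No other difference in UU share changed its sign under the alternatives run. With identical reads counted once the UU share was 1.46% in urt1, 9.84% in xrn4, 4.32% in urt1 xrn4 and 11.0% in WT, its share of U-only tails 21.1% in urt1, 40.9% in xrn4 and 47.2% in WT, and the median A length 13 nt in xrn4, 12 nt in urt1 xrn4 and 14 nt in WT; urt1 minus WT was -9.54 points, urt1 xrn4 minus WT -6.67, urt1 xrn4 minus xrn4 -5.52 and urt1 xrn4 minus urt1 2.86. At 10 or more A the share was 0.827% in urt1 and 2.80% in urt1 xrn4, that of U-only tails 21.1% in urt1, 48.8% in xrn4 and 52.3% in WT, and the median A length 13 nt in each mutant and 14 nt in WT; urt1 xrn4 minus WT was -11.3, urt1 xrn4 minus xrn4 -11.9 and urt1 xrn4 minus urt1 1.97. At 25 or fewer A the share was 15.2% in xrn4 and 14.8% in WT, with urt1 minus WT at -13.5 and urt1 xrn4 minus WT at -11.2. At the A lengths of WT, urt1 xrn4 minus xrn4 was -9.83 and urt1 xrn4 minus urt1 1.97. Loci of at least 20 tails weighted equally gave 0.988% in urt1, 16.7% in xrn4, 2.48% in urt1 xrn4 and 10.9% in WT, a wider gap between xrn4 and WT than reported. Lane 1 alone gave UU as 41.8% of U-only tails in xrn4. UU tails of at least 2 A lengths were found on 46 loci in urt1, 131 in xrn4, 77 in urt1 xrn4 and 188 in WT. With a minimum of 20 tails, 23 of 58 loci were counted for urt1 minus WT, 9 of 34 (4 higher, 5 lower) for xrn4 minus WT, 16 of 53 for urt1 xrn4 minus WT and 19 of 47 for urt1 xrn4 minus xrn4. With 100 these were 1 of 4, 0 of 3, 1 of 4 and 2 of 3, and 6 of 25 for urt1 xrn4 minus urt1. With identical reads counted once 0 were counted of 2 for urt1 minus WT, 0 of 1 for xrn4 minus WT and 0 of 2 for urt1 xrn4 minus urt1, as fewer loci reached the minimum. At 25 or fewer A, 3 of 13 were counted for urt1 xrn4 minus WT. Without RCA the Calvin cycle list had a UU share of 0.705% in urt1 and 2.61% in xrn4. The other 70 values kept to their interval or, for counts, to within 1.5 times. A locus with 50 tails and no UU tail allows a share of up to 6%, so low shares on single loci were not detectable in the 2 smaller libraries.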

Other observations

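The 16 loci with a UU tail in all 4 libraries were not all deeply read. PSAD-1, which encodes the ferredoxin-docking subunit of photosystem I, had UU on 7 of 37 tails in urt1, 10 of 14 in xrn4, 1 of 22 in urt1 xrn4 and 3 of 15 in WT. Its paralog PSAD-2 had 3 of 47 in urt1, 1 of 13 in xrn4, 4 of 19 in urt1 xrn4 and 5 of 9 in WT. SAMDC, the S-adenosylmethionine decarboxylase of polyamine synthesis, had 1 of 38 in urt1, 11 of 17 in xrn4, 5 of 20 in urt1 xrn4 and 1 of 8 in WT. The potassium transporter AT5G14880 had 2 of 4 in urt1, 6 of 12 in xrn4, 1 of 1 in urt1 xrn4 and 3 of 6 in WT. In each library the UU tails of PSAD-1 had 1 A length, which was 12 nt in urt1, 8 nt in xrn4 and urt1 xrn4 and 11 nt in WT. The 5 UU tails of SAMDC in urt1 xrn4 all had 4 A, and the 6 of AT5G14880 in xrn4 all had 14 A. Such repeated reads may be copies of 1 molecule. These loci were named after their values were seen.

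Some abundant loci had hardly any UU tails in any library. RBCS1A, the small subunit of rubisco, had 2 of 408 in urt1, 3 of 151 in xrn4, 3 of 246 in urt1 xrn4 and 1 of 125 in WT. CAB3 had 3 of 399 in urt1, 0 of 93 in xrn4, 2 of 252 in urt1 xrn4 and 0 of 83 in WT, and the ribosomal protein AT5G56710 had 0 of 306 in urt1, 2 of 77 in xrn4, 0 of 87 in urt1 xrn4 and 0 of 50 in WT. Low shares were common at this depth: the 16 WT loci with at least 50 tails had a median UU share of 3.99%, and 4 of them had no UU tail.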
